A study of Mus musculus with 9 samples.

Results

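The small leucine-rich proteoglycans are secreted proteins whose leucine-rich repeats bind collagen fibrils, growth factors and cell-surface receptors. They were chosen by gene symbol, as the 8 rows of the feature table named Dcn, Bgn, Aspn, Fmod, Lum, Prelp, Omd and Ogn, out of 32286 features, and 10 further members of the family were kept as a comparison list. Transcripts were counted as unique molecular identifiers (UMIs) by 5′ single-cell RNA sequencing of cell suspensions from 9 mammary tumours. Each tumour grew from 168FARN, a mouse mammary tumour line that carries the nuclear reporter H2BMc (histone H2B fused to mCherry), injected into the mammary fat pad of female BALB/c mice aged 5 to 6 weeks when bought. Libraries fell into 3 groups of 3: WT, Kmt2c KO and Kmt2d KO, where a pool of guides had been aimed at exon 1 of Kmt2c or Kmt2d. These genes encode histone H3 lysine 4 methyltransferases that act at enhancers. The knockout lines were edited pools and not clones, and all groups shared the reporter and the host strain.

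Decorin, biglycan and asporin form class I of the family and usually carry chondroitin or dermatan sulfate chains, except asporin, which lacks them. Fibromodulin, lumican, PRELP and osteomodulin form class II and can carry keratan sulfate or sulfated tyrosines. Osteoglycin, also called mimecan, belongs to class III. In connective tissue these proteins are best known as products of fibroblasts and set the diameter and spacing of collagen fibrils, while released biglycan and decorin can bind Toll-like receptors and TGF-β. The question here was how much of their transcript lay in the tumour cells, marked by H2BMc, and how much in fibroblasts and mural cells (the pericytes and smooth muscle cells of vessel walls).

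The matrix held 89147 barcodes and 585680611 UMIs, and 58645 cells were kept (over 500 but below 7500 genes detected, mitochondrial share below 15%), 939 to 14525 per library. WT libraries stood apart in the cells kept, 939 to 2380 against 5997 or more in the knockouts. They lost 26.6% to 68.5% of their barcodes to the mitochondrial limit, against 13.0% to 29.5% in Kmt2c KO and 23.5% to 27.2% in Kmt2d KO. In that loss WT libraries 1 and 3 (50.7% and 68.5%) lay above all knockout libraries, and WT library 2 (26.6%) lay among them. The part of this in the differences against WT was not tested. Of the barcodes of a library, 8.57% to 12.3% also occurred in another. H2BMc was detected in 16707 cells, 361 to 3434 per library, with 9779795 to 47951145 UMIs per library. Library 2 of the Kmt2d KO group stood apart from the other two of its group. In its H2BMc-positive cells Col3a1, a fibrillar collagen, was at 12.0 CPM (UMIs of a gene per 1000000 UMIs of the cells summed), against 64.1 and 65.1 CPM in the other Kmt2d KO libraries and 8.78 to 11.7 CPM in Kmt2c KO. Serpinh1 (81.3 CPM, against 259.8 and 263.3 CPM in its group and 51.4 to 66.9 CPM in Kmt2c KO) and Sdc3 (76.0 CPM, against 28.5 and 29.8 CPM in its group and 74.0 to 97.2 CPM in Kmt2c KO) also lay nearer to the Kmt2c KO libraries. Other genes lay nearer to its own group. Mmp3 was at 123.6 CPM, against 132.6 and 129.1 CPM in its group and 165.8 to 323.6 CPM in Kmt2c KO. Uxs1 was at 25.5 CPM, against 24.2 and 27.4 CPM in its group and 19.0 to 20.9 CPM in Kmt2c KO. Whether the library carries the right label could not be told, so that a Kmt2d KO value may not be of 3 Kmt2d KO tumours. The members are also given without it where a call changes in H2BMc-positive cells. Such fits hold 2 Kmt2d KO libraries, and leaving out the library that stood apart can narrow the spread. The guides were aimed at exon 1, and neither edited gene's transcript was called lower in its knockout. Kmt2c did not pass between Kmt2c KO and WT (log2 fold change -0.03, adjusted p = 0.878 by edgeR's quasi-likelihood test), nor Kmt2d between Kmt2d KO and WT (0.54, edgeR adjusted p = 0.104). Kmt2d was higher in Kmt2c KO than in WT (0.51, edgeR adjusted p = 0.0401). These transcripts could therefore not check the library labels. For the cell lines themselves, the paper reported mutant reads at the targeted sites and reduced protein of each gene. H2BMc itself, whose detection defined the tumour cells, was higher in Kmt2c KO than in WT (0.73 ± 0.15, SE, adjusted p = 0.0106 by edgeR). With cells chosen by Krt8 in place of H2BMc the Kmt2c KO call of Bgn changed, and with 2 or more H2BMc UMIs that of Prelp.

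Ogn, Aspn, Prelp and Bgn were the members called against WT over all H2BMc-positive cells, so that the 250 bases before the start of each are shown. No such sequence was available for Dcn or Lum. Matches to 4 searched motifs are in capitals (the TATA box TATAAA, the AP-1 motif TGANTCA, the TEAD motif CATTCC and the CCAAT box, each on both strands). The sequences are from RefSeq, build GRCm38.p6, the same assembly as mm10, and are those of the C57BL/6J strain. Ogn lies at chr13:49608015-49624501, Aspn at chr13:49544443-49567565, Bgn at chrX:73483601-73495936, all on the plus strand, and Prelp at chr1:133910304-133930102 on the minus strand. The windows shown are chr13:49607765-49608014 for Ogn, chr13:49544193-49544442 for Aspn, chrX:73483351-73483600 for Bgn and chr1:133921402-133921651 for Prelp, written 5′ to 3′ on the gene's strand. The Prelp window lies inside the stated span of the gene, because the promoter table uses a start downstream of the outermost one.
Ogn: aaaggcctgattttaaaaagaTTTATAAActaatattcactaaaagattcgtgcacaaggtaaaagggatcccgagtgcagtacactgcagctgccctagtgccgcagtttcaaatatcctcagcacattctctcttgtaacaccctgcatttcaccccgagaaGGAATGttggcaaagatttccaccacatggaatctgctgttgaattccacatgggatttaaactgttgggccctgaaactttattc
Aspn: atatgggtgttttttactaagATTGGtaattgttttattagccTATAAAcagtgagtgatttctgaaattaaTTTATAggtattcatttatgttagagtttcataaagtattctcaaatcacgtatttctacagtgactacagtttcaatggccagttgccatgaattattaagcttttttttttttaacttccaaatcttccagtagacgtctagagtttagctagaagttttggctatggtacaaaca
Prelp: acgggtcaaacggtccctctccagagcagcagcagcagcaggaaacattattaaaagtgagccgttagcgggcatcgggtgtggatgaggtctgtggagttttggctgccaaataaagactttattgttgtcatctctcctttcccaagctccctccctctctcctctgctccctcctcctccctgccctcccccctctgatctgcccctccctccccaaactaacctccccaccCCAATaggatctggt
Bgn: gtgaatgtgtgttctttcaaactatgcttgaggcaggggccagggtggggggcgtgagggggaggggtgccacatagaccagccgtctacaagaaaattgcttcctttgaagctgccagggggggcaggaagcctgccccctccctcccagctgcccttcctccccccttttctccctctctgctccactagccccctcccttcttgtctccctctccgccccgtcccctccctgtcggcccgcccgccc
In Ogn the first capitals join 2 overlapping matches to TATAAA, 1 per strand, 229 to 222 bases before the start, and GGAATG, the reverse complement of CATTCC, lies 86 to 81 bases before it. Aspn held TATAAA 207 to 202 and TTTATA 178 to 173 bases before the start, and ATTGG, the reverse complement of CCAAT, 229 to 225 bases before it. Prelp held CCAAT 15 to 11 bases before it, and no match was found in the Bgn window. Over the same length, 12.37% of 32851 promoters held the TATA box letters, 6.749% those of AP-1, 12.64% those of TEAD and 33.85% CCAAT. Aspn, Omd (chr13:49582462-49592612) and Ogn lie in a row on the same strand, with gaps of 14.9 and 15.4 kilobases, and 11.65 kilobases part Aspn from Ecm2, another family member. Dcn (chr10:97479500-97518163) and Lum (chr10:97565501-97572703) are 47.34 kilobases apart.

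Decorin binds collagen and TGF-β and is a classic fibroblast product. In H2BMc-positive cells Dcn was at 33.4, 63.9 and 16.3 CPM in the WT libraries, 23.3, 37.2 and 43.0 CPM in Kmt2c KO, and 40.6, 24.5 and 26.8 CPM in Kmt2d KO. The 3 groups overlapped. By edgeR's quasi-likelihood test across all genes, the log2 fold change against WT was -0.16 ± 0.40 (SE, n = 3 per group, adjusted p = 0.812) in Kmt2c KO and -0.35 ± 0.40 (adjusted p = 0.709) in Kmt2d KO.

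Biglycan, the closest relative of decorin, was the member detected in most H2BMc-positive cells, 56.7% of them. Bgn stood at 320.1, 357.8 and 227.5 CPM in WT, 423.2, 883.8 and 574.1 CPM in Kmt2c KO, and 775.3, 433.9 and 745.4 CPM in Kmt2d KO. Every knockout library lay above every WT library. Bgn rose in Kmt2c KO, with a log2 fold change of 1.06 ± 0.30 (SE, n = 3 per group, edgeR adjusted p = 0.0319). In Kmt2d KO the difference of 1.08 ± 0.30 did not pass (edgeR adjusted p = 0.0952), and it did without Kmt2d KO library 2 (1.31 ± 0.25, edgeR adjusted p = 0.00929). In Kmt2c KO the call was lost in 5 of the 9 settings that leave out 1 library: the edgeR adjusted p was 0.0867, 0.0602 and 0.112 without WT library 1, 2 and 3, and 0.109 and 0.0599 without Kmt2c KO library 2 and 3. It was also lost in cells chosen by Krt8 in place of H2BMc (0.90, edgeR adjusted p = 0.0814). The share of cells with a Bgn UMI was 34.1% to 44.4% in WT, 50.2% to 69.2% in Kmt2c KO and 54.0% to 58.3% in Kmt2d KO. With each cell thinned to 3000 UMIs these shares were 26.2% to 35.7%, 40.2% to 60.1% and 42.0% to 49.9%.

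Asporin binds collagen and TGF-β and has an aspartate-rich end in place of a glycosaminoglycan chain. Aspn stood at 96.2, 102.5 and 67.3 CPM in WT, 19.5, 41.1 and 40.1 CPM in Kmt2c KO, and 64.5, 28.6 and 70.6 CPM in Kmt2d KO. All Kmt2c KO libraries lay below all WT libraries, while Kmt2d KO library 3 lay above WT library 3. Aspn fell in Kmt2c KO (log2 fold change -1.41 ± 0.35, SE, n = 3 per group, edgeR adjusted p = 0.0205) and did not pass in Kmt2d KO (-0.73 ± 0.34, edgeR adjusted p = 0.314). Leaving out 1 library ended the Kmt2c KO call in 4 of 9 settings, with an edgeR adjusted p of 0.0631 and 0.0786 without WT library 1 and 2, and 0.0508 and 0.0531 without Kmt2c KO library 1 and 3. Aspn was detected in 33.8% to 39.5% of WT cells, 11.3% to 21.3% of Kmt2c KO cells and 16% to 35.5% of Kmt2d KO cells, and after thinning to 3000 UMIs in 18.8% to 23.6%, 5.80% to 10.8% and 7.76% to 20.3%.

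Fibromodulin, a keratan sulfate proteoglycan that guides collagen crosslinking, was close to undetected. Of 58645 cells, 6 held a total of 8 Fmod UMIs, and 6 of these UMIs lay in 4 of the 122 cells of the mural gate, from WT libraries 2 and 3. A single UMI lay in an H2BMc-positive cell, so that Fmod entered no test.

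Lumican binds collagen and is abundant in cornea and dermis. Lum stood at 48.0, 55.4 and 32.6 CPM in WT, 37.3, 48.2 and 34.8 CPM in Kmt2c KO, and 83.8, 22.6 and 81.9 CPM in Kmt2d KO. Kmt2d KO library 2 was the lowest of all 9, and the other 2 libraries of its group were the highest. Neither knockout passed against WT: the log2 fold change was -0.18 ± 0.40 (SE, n = 3 per group, edgeR adjusted p = 0.792) in Kmt2c KO and 0.44 ± 0.40 (edgeR adjusted p = 0.634) in Kmt2d KO. Without Kmt2d KO library 2, Lum was higher in Kmt2d KO than in WT (0.84 ± 0.19, edgeR adjusted p = 0.0203) and than in Kmt2c KO (1.02 ± 0.18, edgeR adjusted p = 0.00204). These values rest on the 2 Kmt2d KO libraries that were highest of all 9. In these fits 5.79% and 19.7% of all genes were called.

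PRELP anchors basement membranes to collagen. Prelp stood at 29.1, 21.4 and 16.6 CPM in WT, 8.46, 14.7 and 10.7 CPM in Kmt2c KO, and 17.7, 11.1 and 20.9 CPM in Kmt2d KO. The Kmt2c KO libraries lay below those of WT, and Kmt2d KO overlapped WT. Prelp fell in Kmt2c KO (log2 fold change -0.98 ± 0.28, SE, n = 3 per group, edgeR adjusted p = 0.0351) and did not pass in Kmt2d KO (-0.46 ± 0.28, edgeR adjusted p = 0.446). The Kmt2c KO call was lost in cells with 2 or more H2BMc UMIs (-0.74, edgeR adjusted p = 0.156) and in 4 of 9 settings that leave out 1 library, where the edgeR adjusted p was 0.132 and 0.0916 without WT library 1 and 2, and 0.102 and 0.112 without Kmt2c KO library 1 and 3.

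Osteomodulin, known from bone, was scarce. Omd stood at 4.0, 4.58 and 2.25 CPM in WT, 1.59, 2.36 and 3.09 CPM in Kmt2c KO, and 3.27, 1.87 and 3.38 CPM in Kmt2d KO, and the groups overlapped. The log2 fold change was -0.65 ± 0.33 (SE, n = 3 per group, edgeR adjusted p = 0.198) in Kmt2c KO and -0.39 ± 0.33 (edgeR adjusted p = 0.600) in Kmt2d KO.

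Osteoglycin was the member that fell in both knockouts. Ogn stood at 37.7, 31.9 and 28.3 CPM in WT, 6.90, 12.1 and 13.3 CPM in Kmt2c KO, and 8.59, 7.11 and 11.8 CPM in Kmt2d KO. Every knockout library lay below every WT library, and the group means were 32.7 ± 4.74 CPM (SD, n = 3), 10.8 ± 3.39 CPM and 9.18 ± 2.42 CPM. The log2 fold change was -1.61 ± 0.24 (SE, edgeR adjusted p = 0.00232) in Kmt2c KO and -1.85 ± 0.24 (edgeR adjusted p = 0.00421) in Kmt2d KO. It was -1.68 ± 0.23 (edgeR adjusted p = 0.00108) in Kmt2d KO without library 2. Ogn was detected in 19.5% to 27.0% of WT cells, 3.99% to 8.29% of Kmt2c KO cells and 5.52% to 10.6% of Kmt2d KO cells, and after thinning to 3000 UMIs in 9.0% to 11.6%, 1.78% to 3.3% and 2.13% to 4.12%.

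**Figure D1:**
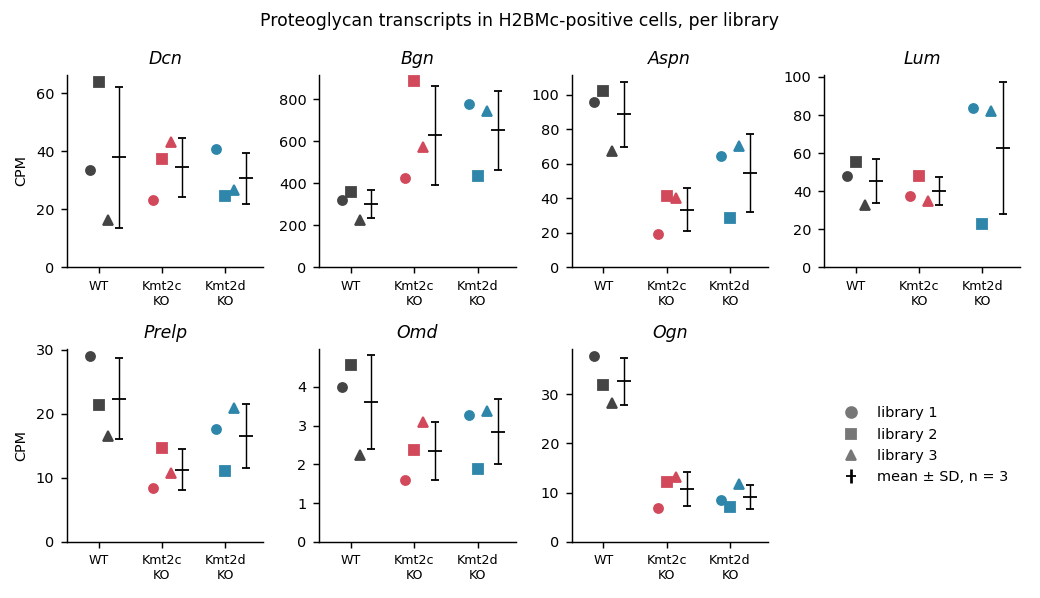
CPM in H2BMc-positive cells, on the vertical axis, for each of the 9 libraries by genotype, with a panel per gene; the black mark is the group mean ± SD of 3 libraries. All 6 knockout libraries lie below WT for Ogn and above WT for Bgn, and Kmt2d KO library 2 (square) is the lowest of its group for each gene shown.

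Across the members, 7 of 8 passed the filter on low counts. In Kmt2c KO against WT, 1 member was higher, 3 were lower and 3 did not pass, where 18.7% of all 14089 genes were called, 9.57% higher and 9.17% lower. The groups did not overlap for 4 of 7 members, beside 42.1% of all genes. The median log2 fold change was -0.65 over the members and -0.004 over all genes. In Kmt2d KO against WT, 1 of 7 members was called, and it was lower, where 2.27% of all genes were called and 1.23% lower. Groups were apart for 2 of 7 members, beside 23.4% of all genes, and the median was -0.39 against 0.005 over all genes. Without Kmt2d KO library 2, 3 of 7 members were called, beside 5.79% of all genes. Between Kmt2d KO and Kmt2c KO no member was called by edgeR (adjusted p from 0.332 to 0.982), beside 0.0781% of all genes. The log2 differences there were 0.68 for Aspn, 0.62 for Lum, 0.53 for Prelp, 0.26 for Omd, 0.020 for Bgn, -0.20 for Dcn and -0.24 for Ogn. Without that library Lum, Aspn (0.99 ± 0.24, edgeR adjusted p = 0.0139) and Prelp (0.76 ± 0.22, edgeR adjusted p = 0.0293) were higher in Kmt2d KO than in Kmt2c KO, beside 19.7% of all genes.

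Markers of other cell types were read in these same cells. Their median depth was 13729 to 24081 UMIs in WT, 8661 to 11824 in Kmt2c KO and 11222 to 14789 in Kmt2d KO, and the shares of cells below were not matched for depth. Of the 8 fibroblast markers, Pdgfra, Dpt, Clec3b and Pi16 were detected in 52.0%, 12.7%, 21.4% and 19.3% of H2BMc-positive cells, and Abca8a, Pdgfrl, Dpep1 and Col14a1 in 5.42%, 1.2%, 0.886% and 0.144%. At least 2 of the 8 were detected in 41.3% to 48.0% of them in WT, 16.7% to 26.8% in Kmt2c KO and 24.7% to 42.7% in Kmt2d KO. The summed level of the 8 markers was 238 to 335 CPM in WT, 189 to 257 CPM in Kmt2c KO and 168 to 330 CPM in Kmt2d KO, and the groups overlapped. Mural, endothelial, macrophage and T cell marker sums stayed at or below 32.8 CPM in each library. Cells with fewer than 2 markers of every other gate made up 50.9% to 57.6% of the H2BMc-positive cells in WT, 70.1% to 82.1% in Kmt2c KO and 55.8% to 72.2% in Kmt2d KO.

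The members were then measured in the cells with few markers alone. These cells had a median depth of 16231 to 31528.5 UMIs in WT, 8422 to 11494 in Kmt2c KO and 12609 to 15243 in Kmt2d KO. The cut on markers was not matched for depth, and the part of depth in the values below was not tested. Ogn was at 7.17, 12.1 and 5.80 CPM in WT, 3.97, 6.66 and 5.03 CPM in Kmt2c KO and 3.95, 3.89 and 4.48 CPM in Kmt2d KO, and its differences did not pass (-0.75, edgeR adjusted p = 0.0624, and -1.09, edgeR adjusted p = 0.0565). Without Kmt2d KO library 2, a setting added after seeing the data, both did (-0.77, edgeR adjusted p = 0.0294, and -1.05, edgeR adjusted p = 0.0412), beside 33.3% and 6.8% of all genes in Kmt2c KO and Kmt2d KO. Aspn was at 14.5, 31.6 and 8.87 CPM in WT, 10.9, 24.6 and 17.5 CPM in Kmt2c KO and 32.1, 12.0 and 34.9 CPM in Kmt2d KO. Its Kmt2c KO difference was -0.13 (edgeR adjusted p = 0.872). Prelp turned to a value above WT in Kmt2c KO (0.84, edgeR adjusted p = 0.100), which did not pass.

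Bgn kept its direction in those cells, at 82.0, 106.3 and 64.5 CPM in WT, 314, 648 and 342 CPM in Kmt2c KO and 347, 253 and 278 CPM in Kmt2d KO. Its log2 fold change was 2.34 ± 0.29 (SE, n = 3 per group, edgeR adjusted p = 0.000538) in Kmt2c KO and 1.75 ± 0.28 (edgeR adjusted p = 0.00862) in Kmt2d KO, or 1.85 ± 0.27 (edgeR adjusted p = 0.00104) without Kmt2d KO library 2. Lum was at 0, 9.86 and 1.02 CPM in WT, 27.9, 40.4 and 19.0 CPM in Kmt2c KO and 15.7, 14.8 and 13.7 CPM in Kmt2d KO, and every knockout library lay above every WT library. How many of all genes did not overlap in these cells was not counted. The fit called Lum in Kmt2c KO (edgeR adjusted p = 0.0111) and not in Kmt2d KO (edgeR adjusted p = 0.173), and WT library 1 held no Lum UMI. In these cells 23.6% of all genes were called in Kmt2c KO and 2.99% in Kmt2d KO.

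In the H2BMc-positive cells that held 2 or more markers of another gate, Ogn was at 83.6, 65.2 and 62.0 CPM in WT, 19.2, 25.7 and 32.5 CPM in Kmt2c KO and 16.5, 15.6 and 21.5 CPM in Kmt2d KO. Aspn was at 219, 221 and 155 CPM in WT, 55.3, 82.4 and 92.8 CPM in Kmt2c KO and 120, 72.3 and 117 CPM in Kmt2d KO. For both genes every knockout library lay below every WT library in these cells, which were not tested apart. How many of all genes were apart in these cells was not counted. Over all H2BMc-positive cells, groups did not overlap for 42.1% of all genes in Kmt2c KO and 23.4% in Kmt2d KO. The part of the marker-holding cells in the differences over all H2BMc-positive cells was not tested beyond these values.

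**Figure D2:**
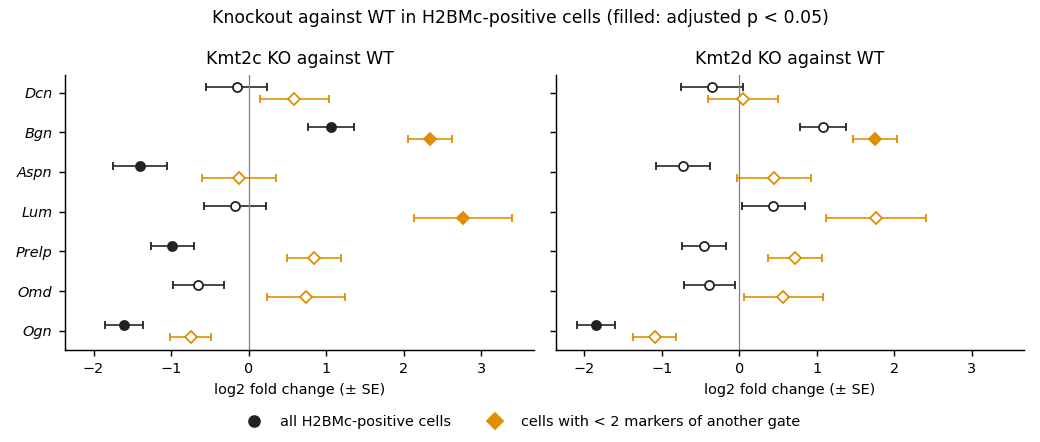
Log2 fold change ± SE against WT for 7 members, in all H2BMc-positive cells (circles) and in those with fewer than 2 markers of every other gate (diamonds); filled symbols passed an edgeR adjusted p below 0.05. Bgn lies to the right in both sets of cells, while Aspn, Prelp and Omd lie left of 0 in all cells and near or right of 0 in the cells with few markers.

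**Figure D3:**
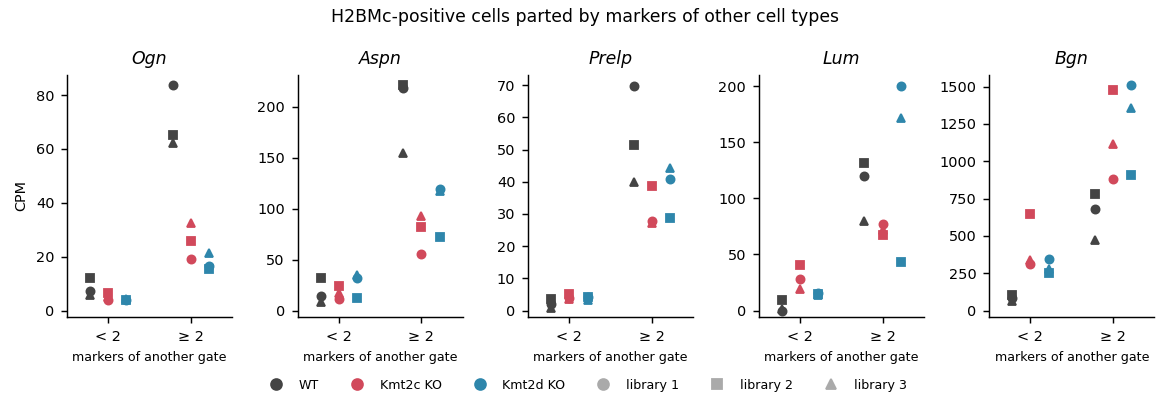
CPM per library, on the vertical axis, in H2BMc-positive cells with fewer than 2 and with 2 or more markers of another gate, coloured by genotype. WT libraries hold the highest Ogn and Aspn in the cells with 2 or more markers and the lowest Bgn and Lum in the cells with fewer.

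Within H2BMc-positive cells the members were unevenly spread. At least 1 member was detected in 62.1% of cells, at least 2 in 34.1% and at least 3 in 16.8%, and no cell held all 8. Cells with at least 3 members made up 23.8% to 31.5% of the WT libraries, 8.82% to 16.3% of Kmt2c KO and 10.9% to 22.9% of Kmt2d KO. After thinning to 3000 UMIs these were 9.01% to 13.4%, 3.89% to 5.67% and 4.21% to 11.5%. Lum was concentrated: 402 cells with 10 or more Lum UMIs held 69.5% of its UMIs, and the highest cell held 86. For Dcn, 188 such cells held 52.8%. Of the cells with an Ogn UMI 70.3% also held Aspn, and 26.0% of the cells with Aspn held Ogn. Over all H2BMc-positive cells Aspn was detected in 23.6% and Ogn in 8.73%. Bgn was held by 86.0% of the cells with Ogn, and by 56.7% of all. Detection of these members also follows the depth of a cell, whose part was not tested.

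All 7 members that passed the filter on low counts were higher in the 10393 H2BMc-positive cells without a UMI of the proliferation genes Mki67 and Top2a than in the 6314 cells with one, in 9 of 9 libraries. Ogn was at 23.8 and 3.63 CPM in cells without and with these transcripts, Aspn at 95.4 and 11.1 CPM, Bgn at 1006 and 201.8 CPM, and Lum at 93.0 and 13.4 CPM. Dcn was at 56.2 and 11.3 CPM, Prelp at 27.2 and 4.47 CPM, and Omd at 4.71 and 0.973 CPM. How many of all genes differ in this way in every library was not counted, so that the pattern may not be particular to the family. Cells with these transcripts were deeper, with a median of 16791 UMIs against 9796. They made up 54.9% of the H2BMc-positive cells in Kmt2d KO library 2 and 29.4% to 45.7% in the other libraries. Leaving them out, a choice made after seeing the data, kept every call of Kmt2c KO against WT and added Omd (-0.93, edgeR adjusted p = 0.0401). In Kmt2d KO this choice kept Ogn and added Bgn (1.00, edgeR adjusted p = 0.0405). Beside these, 2259 of all 12893 genes were called in Kmt2c KO and 192 in Kmt2d KO.

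**Figure D4:**
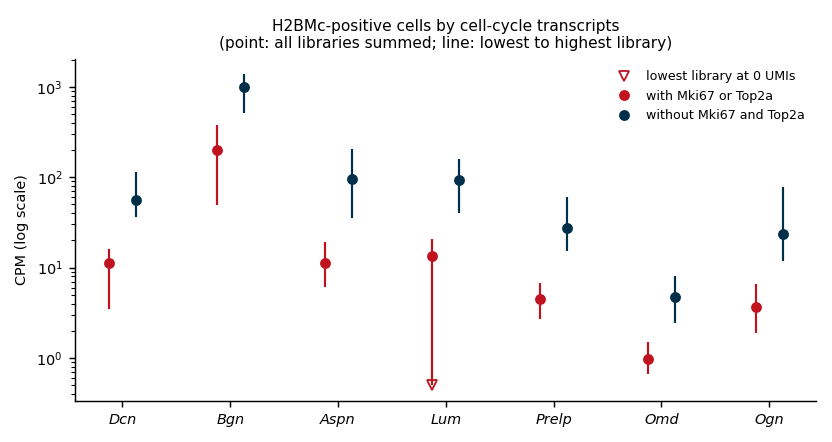
CPM of each member on a log axis in H2BMc-positive cells with and without UMIs of Mki67 or Top2a, for all libraries summed (points) and from the lowest to the highest library (lines). For every member the value without these transcripts is the higher one.

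Fibroblasts were sought by at least 2 of 8 markers in cells with no UMI of H2BMc, Krt8 or Krt18. The 2650 cells of this fibroblast-marker gate could largely not be told from tumour cells, since 885 H2BMc-positive cells met all its other terms and its defining markers Pdgfra and Clec3b were common among the H2BMc-positive cells. A subset of 124 cells with UMIs of both Col1a1 and Col1a2, chosen after seeing the data and so given with no test, had all 8 fibroblast markers in over 10% of its cells. Only 2 H2BMc-positive cells met its terms. The mural gate held 122 cells, with all 8 of its markers in over 10% of cells, and 4 H2BMc-positive cells met its other terms.

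Dcn was at 4526 CPM in the collagen I fibroblasts (95% Poisson interval 4375 to 4681), 66.9 CPM in the mural gate (44.1 to 97.3), 33.1 CPM in H2BMc-positive cells (32.3 to 33.8) and 12.2 CPM in the endothelial gate (8.45 to 17.1), a cell type that should lack it. It was detected in 93.5% of collagen I fibroblasts, 10.6% of H2BMc-positive cells and 1.97% of endothelial cells, at median depths of 4998, 11694 and 4597 UMIs. These intervals cover counting error only. Lum (870.5 against 52.0 CPM), Ogn (216.6 against 13.4 CPM) and Prelp (197.9 against 15.5 CPM) also stood higher in the collagen I fibroblasts than in H2BMc-positive cells. Aspn was highest in the mural gate, at 368.9 CPM, against 105.6 CPM in collagen I fibroblasts, 52.0 CPM in H2BMc-positive cells and 3.59 CPM in the endothelial gate. Bgn was at 1550 CPM in collagen I fibroblasts, 1245 CPM in the mural gate, 591.8 CPM in H2BMc-positive cells and 25.8 CPM in the endothelial gate. The macrophage gate, of 1195 cells, was at 157 CPM for Bgn and 14 CPM for Aspn. Omd was at 2.79 CPM in H2BMc-positive cells and 4.46 CPM in the fibroblast-marker gate, with 2 UMIs in collagen I fibroblasts.

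**Figure D5:**
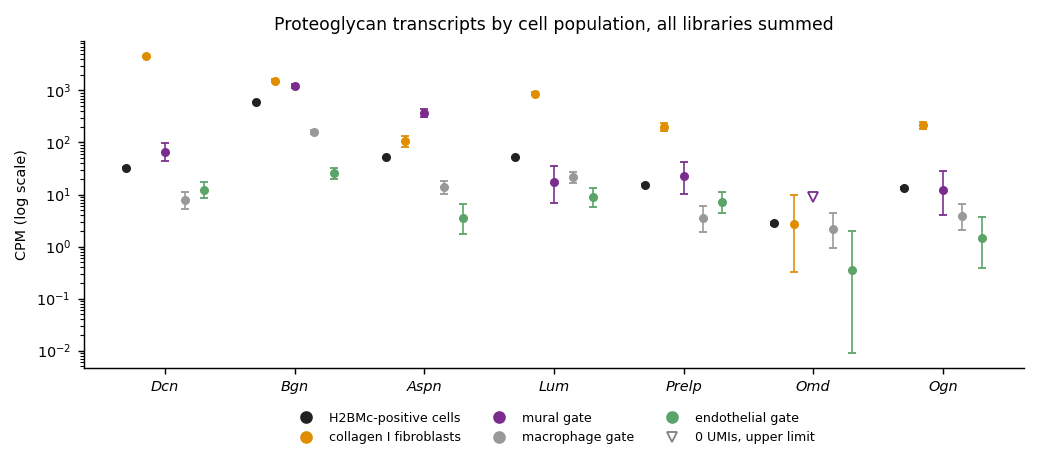
CPM of each member on a log axis in 5 cell populations with all libraries summed; bars are 95% Poisson intervals, and the open triangle is the upper limit for 0 UMIs. Dcn lies highest in the collagen I fibroblasts and Aspn in the mural gate.

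Most transcripts of each member lay outside the collagen I fibroblasts. H2BMc-positive cells, 28.5% of all cells with 42.7% of all UMIs, held 33.5% of the Dcn UMIs, 35.8% of Lum, 38.6% of Aspn, 40.9% of Bgn, 41.2% of Prelp, 41.9% of Ogn and 43.4% of Omd. Keratin-positive cells without H2BMc, 39.4% of all cells with 44.7% of all UMIs, held 36.5% of the Dcn UMIs, 42.7% of Lum and 42.1% of Ogn. Their levels lay near those of H2BMc-positive cells, at 34.4 CPM for Dcn, 59.2 CPM for Lum and 12.9 CPM for Ogn. Aspn was at 57.0 CPM and Bgn at 587 CPM in them. Whether they were tumour cells with the reporter missed was not tested. The shares of H2BMc-positive cells may therefore not be those of all tumour cells. Collagen I fibroblasts, 0.211% of the cells, held 14.8% of the Dcn UMIs, but only 2.18% of those of Ogn, 1.94% of Lum, 1.70% of Prelp, 0.346% of Bgn and 0.253% of Aspn. Mural cells held 0.477% of the Aspn UMIs and 0.150% of those of Bgn. In WT the collagen I fibroblasts held 23.1% of the Dcn UMIs, while in Kmt2c KO they held 5.73% and in Kmt2d KO 19.0%, and they made up 0.599%, 0.0941% and 0.261% of the cells. These shares differed between libraries. The collagen I fibroblasts were 17 of 1185, 2 of 2380 and 8 of 939 kept cells in WT. They were 15 of 11813, 7 of 8743 and 3 of 6024 in Kmt2c KO, and 46 of 5997, 22 of 7039 and 4 of 14525 in Kmt2d KO. WT library 2 lay within the range of Kmt2c KO, and nearly all their WT Dcn UMIs came from libraries 1 and 3. Within these cells Dcn was at 4515, 3441 and 7680 CPM in WT and 2932, 7771 and 4557 CPM in Kmt2c KO, and the groups overlapped.

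Compared within libraries, 6 of 7 tested members were higher in the fibroblast-marker gate than in H2BMc-positive cells, beside 31.6% of all genes. The log2 difference was 3.0 ± 0.40 (SE, 9 libraries, edgeR adjusted p = 6.91e-06) for Dcn, 2.05 ± 0.15 for Lum, 1.89 ± 0.09 for Prelp, 1.55 ± 0.11 for Aspn, 1.51 ± 0.20 for Ogn and 1.17 ± 0.12 for Bgn. Omd did not pass (0.45 ± 0.19, edgeR adjusted p = 0.0533), and did in 4 of 16 alternatives: without Kmt2c KO library 3 (edgeR adjusted p = 0.034), with RLE size factors (0.0386), with further keratin and adhesion genes at 0 (0.049) and against Krt8-positive cells without Ptprc (0.029). The Dcn value rested largely on few cells: the 124 collagen I fibroblasts held 3385 of the 4711 Dcn UMIs of the gate, and its other 2526 cells were at 83.6 CPM. The gate was chosen by markers and the H2BMc-positive cells were not, and the part of this was not tested. With all libraries summed, the gate was at 41.1 CPM for Ogn, 159.2 CPM for Aspn and 64.0 CPM for Prelp. These lay within the library ranges of H2BMc-positive cells with 2 or more markers of another gate. Dcn, Lum and Bgn (283.8, 258.9 and 1540 CPM) lay above those ranges. In the mural gate, 8 libraries could be used, and 3 of 7 tested members were called against H2BMc-positive cells, beside 37.2% of all genes, 13.4% higher and 23.8% lower. The p-values of this fit matched those of a normal distribution, so that a gene's own spread between libraries hardly entered them. Its median log2 difference over all genes was -0.47, so that its values are not centred on no change. Aspn (2.15 ± 0.22, edgeR adjusted p = 6.75e-22) and Bgn (0.76 ± 0.17, edgeR adjusted p = 3.71e-05) were higher. Lum was lower (-1.88 ± 0.48, edgeR adjusted p = 0.000575), with all 7 of its mural UMIs in a single cell of Kmt2c KO library 3. Dcn (0.43 ± 0.35), Prelp (0.070 ± 0.53) and Ogn (-1.0 ± 0.63) did not pass, nor did Omd, which had no UMI in the mural gate. Ogn was lower without that library (-2.35, edgeR adjusted p = 0.015). This was among the 2 alternatives in which Ogn was called. Against the fibroblast-marker gate, mural cells had higher Aspn (0.69 ± 0.25, edgeR adjusted p = 0.0285), a call lost under 5 of 13 alternatives, beside 13.8% of all genes higher. These included leaving out WT library 3 or Kmt2c KO library 2 or 3, with an edgeR adjusted p of 0.0506, 0.105 and 0.149. Lum (-3.90 ± 0.57), Dcn (-2.87 ± 0.54), Ogn (-2.21 ± 0.62) and Prelp (-1.74 ± 0.58) were lower in mural cells, beside 18.2% of all genes. Bgn did not pass (-0.37 ± 0.24, edgeR adjusted p = 0.261), and Omd was not tested. That of Prelp was lost without WT library 1 or 2, Kmt2c KO library 2 or Kmt2d KO library 1 (edgeR adjusted p from 0.055 to 0.069).

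Mural Aspn was at 295.6, 450.3 and 492.0 CPM in WT, 122.4, 330.7 and 449.5 CPM in Kmt2c KO and 306.7, 323.6 and 410.4 CPM in Kmt2d KO, and the groups overlapped. Kmt2d KO library 2 had 3 mural cells and stayed out of the fits. Only Aspn and Bgn could be tested by genotype there and neither was called by edgeR (for Aspn -0.38 ± 0.38 in Kmt2c KO and -0.17 ± 0.45 in Kmt2d KO, with unadjusted p of 0.336 and 0.708, and for Bgn 0.54 ± 0.30 and 0.086 ± 0.35), beside 3.69% of all genes in Kmt2c KO and 0.299% in Kmt2d KO. In the fibroblast-marker gate, Ogn (-1.94 ± 0.29, edgeR adjusted p = 0.00346), Aspn (-1.50 ± 0.20), Dcn (-2.86 ± 0.54) and Prelp (-1.0 ± 0.27) fell in Kmt2c KO, beside 10% of all genes called. Lum (-1.04 ± 0.46), Omd (-1.16 ± 0.56) and Bgn (0.61 ± 0.27) did not pass. Dcn there was at 1331, 451.4 and 1260 CPM in WT and 139.0, 165.7 and 88.1 CPM in Kmt2c KO, and the collagen I fibroblasts inside the gate held 673 of 679 Dcn UMIs in WT library 1 and 427 of 433 in WT library 3. In WT library 2 they held 23 of 283, so that the other cells of the gate held most of its Dcn UMIs. The make-up of the gate differed: collagen I fibroblasts were 17 of 65, 2 of 96 and 8 of 36 gated cells in WT, and 15 of 459, 7 of 424 and 3 of 315 in Kmt2c KO. Without them Dcn was at 16.6, 419.2 and 20.8 CPM in WT and 65.7, 81.1 and 68.1 CPM in Kmt2c KO, and the groups overlapped. Prelp also overlapped there (62.5 to 93.5 CPM in WT, 41.2 to 65.6 CPM in Kmt2c KO). Ogn (58.1 to 97.2 against 20.0 to 32 CPM) and Aspn (319.3 to 430.5 against 107.0 to 124.8 CPM) did not overlap, and how many of all genes did not was not counted. The gate asks for 0 UMIs of Krt8, which itself fell in H2BMc-positive cells of Kmt2c KO (-0.94, edgeR adjusted p = 0.00648), and the part of this was not tested. In Kmt2d KO, Ogn (-0.99 ± 0.28, edgeR adjusted p = 0.0473) and Aspn (-0.92 ± 0.19, edgeR adjusted p = 0.0217) fell and Bgn rose (1.00 ± 0.27, edgeR adjusted p = 0.0415), beside 8.69% of all genes. Dcn (-1.48 ± 0.51), Prelp (-0.58 ± 0.27), Lum (0.43 ± 0.45) and Omd (-0.14 ± 0.52) did not pass. The 3 calls in Kmt2d KO held without its library 2, and all 3 were lost when the gate asked for 3 markers, as were those of Ogn and Prelp in Kmt2c KO. The Kmt2c KO call of Prelp was also lost without any single library of WT or Kmt2c KO (edgeR adjusted p from 0.0535 to 0.201). In Kmt2d KO, leaving out a library ended the call of Ogn for WT libraries 1, 2 and 3, Kmt2c KO libraries 1 and 2 and Kmt2d KO libraries 1 and 3 (edgeR adjusted p from 0.0567 to 0.166). The Bgn call was lost for the same libraries except Kmt2c KO library 2 (0.0627 to 0.129), and the Aspn call for WT library 2 and Kmt2d KO libraries 1 and 3 (0.0565 to 0.0685).

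Genes that act with the family were read in H2BMc-positive cells from lists, whose counts stand beside 18.7% of all genes called in Kmt2c KO and 2.27% in Kmt2d KO. Of 12 tested fibrillar and associated collagens, 2 rose and 2 fell in Kmt2c KO: Col3a1 was at 146.4, 132.2 and 99.1 CPM in WT and 11.4, 11.7 and 8.78 CPM in Kmt2c KO (-3.56 ± 0.52, edgeR adjusted p = 0.00203), and Col5a2 fell by 2.70 on the log2 scale. Of 16 collagen processing genes, 5 rose and 3 fell, among them the prolyl hydroxylase P4ha1 (1.02 ± 0.21) and the collagen chaperone Serpinh1 (-1.75 ± 0.35). Of 20 genes of chondroitin and dermatan sulfate synthesis, 2 rose and 2 fell, and of 3 tested genes of keratan sulfate synthesis, 2 rose and 1 fell. Among 9 proteases that can cut the family 3 rose, including Mmp3 (3.0 ± 0.25, edgeR adjusted p = 0.000148). Among 18 receptors and ligands, 3 rose and 1 fell, the TGF-β receptor Tgfbr2 (-1.13 ± 0.13). Of 16 other proteoglycans 5 rose, led by the syndecan Sdc3 (2.53 ± 0.36).

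In Kmt2d KO, 1 of 12 collagens fell (Col5a2, -1.45 ± 0.33, edgeR adjusted p = 0.0491, and -1.10 ± 0.15, edgeR adjusted p = 0.00108, without Kmt2d KO library 2), no collagen processing or keratan sulfate gene was called by edgeR, and 1 of 20 chondroitin and dermatan sulfate genes fell, Ust (-0.67 ± 0.11). Mmp3 rose there too (2.01 ± 0.24, edgeR adjusted p = 0.00252), at 132.6, 123.6 and 129.1 CPM in Kmt2d KO and 23.9, 38.2 and 30.7 CPM in WT. Tgfbr2 fell (-0.93 ± 0.13, edgeR adjusted p = 0.00512) among the receptors and ligands. Of 16 other proteoglycans 1 rose, the perlecan gene Hspg2 (0.48 ± 0.09). Of the 10 further family members, 4 passed the low-count filter, and none was called in either knockout. The calls of Ust, Mmp3, Tgfbr2 and Hspg2 held without Kmt2d KO library 2, where Col3a1 also fell (-0.98 ± 0.15, edgeR adjusted p = 0.00268) and Sdc3 rose (0.93 ± 0.16, edgeR adjusted p = 0.00454).

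Across the 9 libraries, Aspn and Prelp varied most alike among the members (Pearson r = 0.94 of log2 CPM), followed by Aspn and Omd (0.89), and Ogn and Aspn stood at 0.81. Ogn and Bgn ran opposite (-0.58). The genes most like Aspn were Foxd1 (0.99), Il33 (0.98) and Gas1 (0.98), those most like Ogn were Tfpt (0.97), Irx5 (0.96) and Ramac (0.96), and those most like Bgn were Dcun1d2 (0.97), Col4a1 (0.96) and Rabif (0.96). The libraries share genotype groups, so that these values are descriptions. Cenpp, which overlaps Aspn and Omd, fell by 0.39 on the log2 scale in Kmt2c KO (edgeR adjusted p = 0.0453). Its overlap with Ogn was not checked, and whether reads of overlapping genes were mixed was not tested.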

How the data were processed

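Digested suspensions of 9 whole tumours, depleted of dead cells and debris on a Percoll gradient by the authors, were sequenced as 10x 5′ libraries. Cell Ranger was run by the authors (7.0.1, mm10 per the submitters' processing notes), and UMI counts were deposited. Libraries were read from barcode suffixes, and genotype letters (C, D, X) gave the groups, by the way the study names its comparisons. Library numbers are names only. The members and gene lists were chosen with earlier results of these data known. No doublet caller was run. UMIs were summed per library and population and tested with edgeR 4.0.16 (quasi-likelihood, filterByExpr, TMM, all 9 libraries, Benjamini-Hochberg adjusted p below 0.05), with the library as a block between populations. The study calls the libraries biological replicates but the sources used here do not say that each is a separate mouse. The p-values measure the spread between libraries, but for mural against H2BMc-positive cells mostly the spread shared over all genes. A gate needed 0 UMIs of H2BMc, Krt8 and Krt18 and at least 2 of its 8 markers, more than of any other gate. A minimum of 20 cells per library left 1 library for mural cells, so that 10 was used there. Every member that entered a comparison was named in it, with at most 3 called genes per list and direction. Tests were checked on simulated counts. Each edgeR SE was worked back from its test, as the size of the log2 value over the square root of the F statistic. It draws on all libraries of the fit. DESeq2 1.42.0 was an alternative. One gene of the lists is not reported here.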

Additional observations from a re-analysis of the deposited data

How the results depend on the processing

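No paired analysis was possible because the library names carry no replicate numbers that could be matched to the labels, which concerns the comparisons of genotypes (cell populations were compared with the library as a block). Genes called, the counts under edgeR's quasi-likelihood test, varied with the libraries. Leaving out 1 library at a time gave 1256 (without WT library 2) to 4140 (without Kmt2d KO library 2) genes for Kmt2c KO against WT, 98 (without WT library 1) to 823 (without Kmt2d KO library 2) for Kmt2d KO against WT, and 0 to 2797 (without Kmt2d KO library 2) for Kmt2d KO against Kmt2c KO. In the fibroblast-marker gate it gave 205 to 1762 in Kmt2c KO and 97 to 1369 in Kmt2d KO, and in the mural gate 14 to 44 and 0 to 6. Kmt2d KO against WT gave 209 genes with at least 2 H2BMc UMIs, 192 without cycling cells, 703 by DESeq2, 516 with no low-count filter and 177 with only the 2 groups. Kmt2d KO against Kmt2c KO gave 0 in Krt8-positive cells, 121 with at least 2 H2BMc UMIs, 0 with at least 3000 UMIs per cell, 577 by DESeq2, 521 with no filter and 0 with 2 groups. In cells with few markers and without Kmt2d KO library 2, the counts were 4442 for Kmt2c KO and 907 for Kmt2d KO against WT, and 2816 between the knockouts. The fibroblast-marker gate gave 172 and 14 genes in Kmt2c KO and Kmt2d KO with 3 markers, and 2073 and 1921 with no filter. The mural gate gave 24 and 0 by DESeq2 (Kmt2c KO, Kmt2d KO), and 6 with no filter in Kmt2d KO.

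Directions turned in uncalled members, and in the cells with few markers also in called ones. There the log2 values against WT in Kmt2c KO were 0.84 for Prelp, 0.59 for Dcn, 2.77 for Lum and 0.74 for Omd, and in Kmt2d KO 0.72 for Prelp, 0.042 for Dcn, 0.44 for Aspn and 0.56 for Omd. Between the knockouts they were -0.13 for Prelp, -1.0 for Lum, -0.18 for Omd and -0.59 for Bgn. In those cells without Kmt2d KO library 2, they were 0.82 for Prelp, 0.57 for Dcn, 2.72 for Lum and 0.71 for Omd in Kmt2c KO, 0.61 for Prelp, 0.77 for Aspn and 0.58 for Omd in Kmt2d KO, and -0.21 for Prelp, -1.0 for Lum, -0.13 for Omd and -0.48 for Bgn between the knockouts. With at least 2 H2BMc UMIs, Dcn was at 0.15 in Kmt2c KO and Bgn at -0.058 between the knockouts. Leaving out libraries moved Dcn from -0.49 to 0.49 in Kmt2c KO and -0.69 to 0.28 in Kmt2d KO, Lum from -0.34 to 0.015 in Kmt2c KO, Bgn from -0.21 to 0.38 between the knockouts, and Omd from -0.30 to 0.12 in the fibroblast-marker gate. In mural cells against H2BMc-positive cells, Dcn was at -0.86 with 3 markers and -0.80 to 0.55 without single libraries, Prelp at -0.013 with no filter, -1.18 by DESeq2 and -0.93 to 0.23 without single libraries, and Omd at 0.28 by DESeq2. Within mural cells in Kmt2d KO, Bgn was at -0.26 with 3 markers, -0.10 with no filter and -0.19 to 0.32 without single libraries, and Aspn at -0.44 to 0.053. The causes were not tested. Ogn kept its calls against WT in 19 of 20 alternatives in each knockout. Thinning cells to 3000 UMIs was counted as moving 22 of 24 shares of cells by more than 1 SD. That count includes Fmod in WT and Kmt2d KO, whose share was 0 and did not move. A share of 0 is limited by depth.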
